A study of Mus musculus with 12 samples.

Results

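The ribosomal protein genes of the cytosol were followed in mouse microglia, the resident macrophages of the brain, across 12 expression arrays. Members were the genes whose RefSeq symbol follows the Rpl and Rps numbering, together with Rplp0, Rplp1, Rplp2 and Rpsa, without kinases and without symbols that carry the pseudogene suffix -ps. They numbered 85 genes, 52 of the large and 33 of the small subunit, of 45356 genes or accessions on the one array design, and 83 genes of 37147 on the other, which had no named probe for Rps23 and Rpl32l. Of these, 77 are called canonical below, and 8 are called paralogs because their symbol marks them as a second copy of a subunit (Rpl3l, Rpl7l1, Rpl10l, Rpl22l1, Rpl32l, Rpl39l, Rps4l and Rps27l). RefSeq lists Rps4l as a transcribed pseudogene.

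The cells came from male mice 8 weeks old and were enriched by magnetic sorting for the receptor CX3CR1. The mice were wild type, ZEB1-overexpression or ZEB1-knock down, and were sampled before or after tMCAO, a transient occlusion of the middle cerebral artery that models stroke. Each of the 6 groups held 2 arrays. ZEB1 is a zinc-finger transcription factor. The promoter that drives its overexpression, the means of its knock-down, the cells these alleles act in and the time after occlusion are not given in the sources used here. The labels do not say whether replicates came from separate animals, so the p-values speak of the scatter among these arrays alone, and that scatter may be technical.

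A ribosome joins a small subunit, which holds the mRNA and the decoding site, to a large subunit, which forms the peptide bond and leads the new chain out through a tunnel. Each subunit is a core of ribosomal RNA clothed by ribosomal proteins, most of them encoded by a single active gene whose mRNA is among the most abundant in any cell. Their mRNAs start with a run of pyrimidines, known as the TOP motif, through which the mTOR kinase and LARP1 set their translation, so that mRNA level and protein output can part.

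RefSeq promoters (GRCm38.p6) were matched for 64 of the 85 genes, with 76 start sites. A run of at least 8 pyrimidines on the coding strand, searched from 40 bases before to 50 bases after the start, was present in 76.3% of these start sites against 32.5% of all 32851 promoters in the table. Over the whole 300 bases and on both strands, the ETS motif CCGGAAG was present in 35.5% of the members' start sites against 8.86% of all, and the GC box GGGCGG in 59.2% against 35.7%. AAGATGG, a YY1 motif, was found in 15.8% against 6.34%, and TATAAA, the TATA box, in 10.5% against 13.6%. On its reverse strand the ETS motif holds 5 pyrimidines in a row, so it can overlap the pyrimidine run. These matches describe letters in a window and were not tested as sites. The sequences below are shown because the comparisons of levels turn on Rpl39l, Rps27l and Rpl10a, with Rpl39 and Rps27 as the partners of the paralogs. Each is 80 bases, 50 before the start site and 30 from it on, written 5′ to 3′ on the coding strand, and the capitals mark its longest run of pyrimidines.
Rpl39l (chr16:10170178-10170257, plus strand): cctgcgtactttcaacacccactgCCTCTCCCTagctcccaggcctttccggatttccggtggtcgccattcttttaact
Rpl39 (chrX:37085193-37085272, minus strand): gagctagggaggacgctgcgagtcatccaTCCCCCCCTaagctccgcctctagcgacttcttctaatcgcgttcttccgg
Rps27l (chr9:66946036-66946115, plus strand, the upstream of its start sites): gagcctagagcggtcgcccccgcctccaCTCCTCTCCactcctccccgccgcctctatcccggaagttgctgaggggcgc
Rps27 (chr3:90213619-90213698, minus strand): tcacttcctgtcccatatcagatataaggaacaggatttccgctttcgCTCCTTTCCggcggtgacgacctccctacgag
Rpl10a (chr17:28328515-28328594, plus strand, the downstream of its start sites): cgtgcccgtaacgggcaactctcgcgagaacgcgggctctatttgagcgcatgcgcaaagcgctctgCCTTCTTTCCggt
In Rps27 the run of 9 pyrimidines spans the start site, whereas in Rpl39l and Rpl39 the run of 9 ends before it, and in Rpl10a the run of 10 lies after it.

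Levels are given as log2 signal minus the 75th percentile of the array, so that 0 is that percentile and a difference of 1 is a doubling. A slide with 4 arrays carried wild type and overexpression after tMCAO, and a slide with 8 arrays of another probe design carried the remaining 4 groups. Tests were made only within a slide. On the 8-array slide, overexpression before and knock-down after tMCAO lay in columns 1 and 2 and the other groups in columns 3 and 4, so the side of the slide cannot be told apart from these groups. The arrays did not resolve the labelled change of Zeb1 itself. Before tMCAO and with all spots kept, its brighter probe read -0.57 and -0.59 for wild type, -0.28 and -0.36 for the libraries labelled overexpression, and -0.11 and -0.79 for those labelled knock-down. Overexpression exceeded wild type by 0.26, with a 95% interval of -0.30 to 0.81, and knock-down by 0.13, with one of -0.43 to 0.69. After tMCAO this brighter probe read -0.66 and -0.67 for knock-down. The 4-array slide carried another probe for Zeb1. That probe read 0.12 and 0.41 for wild type and -0.08 and 0.56 for overexpression after tMCAO, and only the first overexpression array was unmarked. Where these probes lie relative to the altered sequence is not given, and groups are named as labelled. All 8 microglial markers were well above background on every array, and so were all 5 neuronal and all 5 astrocyte markers. In a bulk sample, fewer cells of a type and less RNA per cell cannot be told apart.

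The canonical genes were among the bright features of every array. All 76 canonical members on the 4-array slide, and 76 of 77 on the 8-array slide, lay above the 75th percentile on every array of the slide. The exception was Rpl37, a large subunit protein, whose only 8-array probe lay between -2.68 and -1.90. Another probe stood for Rpl37 on the 4-array slide. It read 4.56 and 4.13 for wild type and 4.49 and 4.15 for overexpression after tMCAO. The low level is thus that of 1 probe and is not read as a low level of the gene. No member spot was saturated. Of the members, 82 of 83 passed the filter on dim probes on the 4-array slide and 85 of 85 on the 8-array slide. Rpl10l was the member that did not pass.

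The median level of the canonical genes stayed within a narrow band. Before tMCAO it was 3.86 and 4.02 for wild type, 3.95 and 4.16 for overexpression, and 3.81 and 3.83 for knock-down, and after tMCAO it was 3.95 and 4.27 for knock-down. The knock-down arrays before tMCAO were the lowest of the 8, and arrays of the other groups overlapped. On the 4-array slide the median was 4.01 and 3.97 in wild type after and 3.83 and 3.71 in overexpression after tMCAO, where both overexpression arrays lay below both wild type arrays. The arrays of a group differed from each other by a median of 0.32 for knock-down after tMCAO, with 1 array above the other for 74 of 77 canonical genes. For wild type before tMCAO the gap was 0.17, in the same direction for 76 of 77 genes. Over all genes the absolute gap had a median of 0.32 for knock-down after and 0.17 for wild type before tMCAO. A gap of this size is thus not particular to the members. Levels on different slides rest on different probes for all but 39 members and were not compared by a test.

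**Figure D1:**
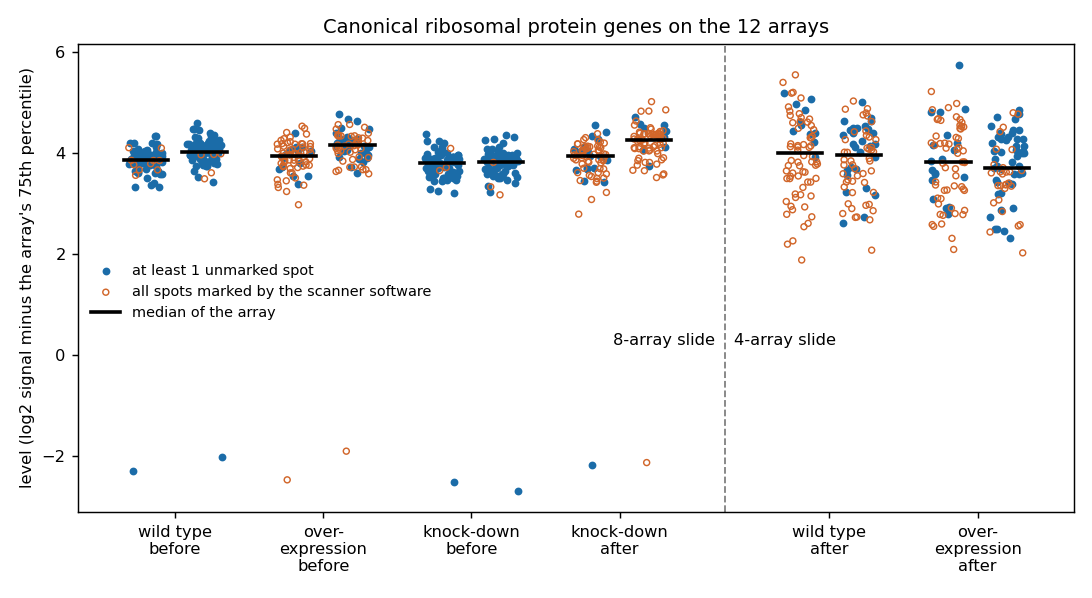
Level of each canonical ribosomal protein gene (log2 signal minus the 75th percentile of the array) on the 12 arrays, 2 for each group, with 77 genes on the 8-array slide and 76 on the 4-array slide. Filled points had at least 1 unmarked spot, open points had all their spots marked by the scanner software, and bars are the medians, which run from 3.71 to 4.27. The points near -2 are the 8-array probe of Rpl37.

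The scanner software marks spots whose pixels are uneven or that stand apart from their copies, and this touched the members more than other genes. The share of members with all their spots marked was 11.8% and 7.06% in wild type before tMCAO and 4.71% and 3.53% in knock-down before. It was 80% and 56.5% in overexpression before, and 71.8% and 83.5% in knock-down after tMCAO. On the 4-array slide it was 81.7% and 62.2% in wild type and 72% and 35.4% in overexpression. Among all genes past the filter the share ran from 0.776% to 32.7%. The high shares on the 8-array slide were those of columns 1 and 2. Each comparison is therefore given with marked spots left out, which is the main setting and measures fewer members, and with marked spots kept.

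**Figure D2:**
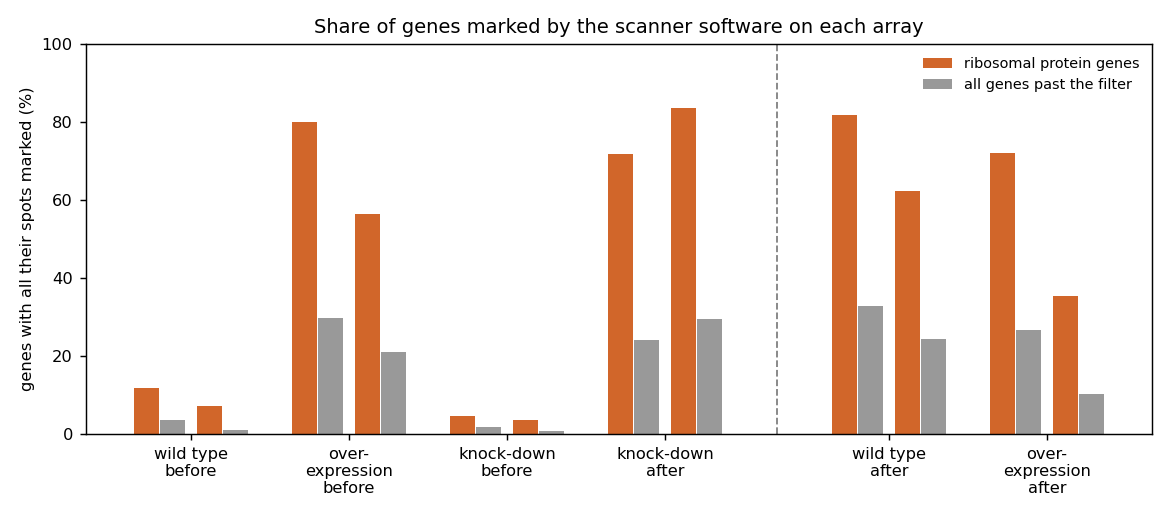
Percent of ribosomal protein genes (orange) and of all genes past the filter (grey) with all their spots marked on each array, 2 bars of each colour per group. The members' share lies between 3.53% and 83.5% and is above that of all genes on each of the 12 arrays.

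The comparison of knock-down after with before tMCAO asks how the response to occlusion looks where ZEB1 is labelled as reduced. The ribosomal protein genes as a body lay slightly higher on the arrays after occlusion, and only a few members passed the test, led by the paralog Rpl39l. The share of members with marked spots was 71.8% and 83.5% after tMCAO against 4.71% and 3.53% before. That share and the side of the slide moved with this comparison, and their part in it was not tested. With marked spots left out, 25 members were measured in both groups. Of these, 2 were called higher and 1 lower (limma, adjusted p under 0.05 over all genes), 3 in all or 12%, where 16% of 24646 genes were called, 10.1% higher and 5.9% lower. The lower call was Rpl10l, at background after tMCAO, and nothing is read from it. The median log2 difference of the 25 members was 0.30 against 0.04 for all genes. Positive were 53% of all genes and 19 of the 25 members. Without the filter on dim probes their median was 0.30 against 0.39 for all genes. Keeping marked spots, 4 of 85 members were called higher and 1 lower, against 16.6% of 30525 genes in either direction, 10.1% higher and 6.47% lower, and the median was 0.30 against 0.04. Of the 85 members, 57 had both arrays after tMCAO above both arrays before it, against 33.6% of all genes, and 7 had both below, against 28.4%. Quantile normalization with marked spots kept brought the members' median to 0.08 and that of all genes to -0.07. Then 39 members lay above without overlap, 45.9% against 28.1% of all genes, and 15 below, 17.6% against 35.3%. The call of members rested on each array. Without the first or the second knock-down array after tMCAO the number called was 0 and 1 (Rpl10l), and without either knock-down array before tMCAO it was 0.

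Rpl39l encodes a paralog of Rpl39, a small protein in the wall of the exit tunnel, and is known for its expression in the male germ line. Its probe was the same on both slides, and it was well above background and had an unmarked spot on all 12 arrays. Its level was -0.94 and -1.36 in knock-down after tMCAO and -3.42 and -5.02 in knock-down before. The groups did not overlap, although the arrays before tMCAO differed by 1.59. The log2 difference was 3.07 ± 0.66 (SE, n = 2 arrays each), 8.41-fold higher (limma adjusted p = 0.031). Over 9 other settings the difference ranged from 2.77 to 3.07 with adjusted p from 0.000865 to 0.056, the highest without the filter on dim probes. Leaving out each of the 4 arrays in turn gave 2.28 to 3.87 with adjusted p from 0.056 to 0.129, so the call was lost in each of these fits. Before tMCAO Rpl39l was low in the other genotypes as well, with -4.65 and -4.12 for wild type and -5.17 and -3.69 for overexpression. After tMCAO, on the other slide, it read -1.64 and -1.47 for wild type and -0.62 and -0.79 for overexpression. All 6 arrays after tMCAO were thus above all 6 arrays before it, but only the knock-down pair shares a slide. The median of all genes past the filter was -0.89 to -0.83 on the 4-array slide and -1.81 to -1.59 on the 8-array slide. Levels of dim genes are thus not on a common scale, and the share of all genes in this order was not counted. The partner Rpl39 lay at 3.85 and 4.10 in knock-down after and at 3.66 and 3.69 before tMCAO, with both spots after tMCAO marked.

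Levels of other genes moved with the same contrast. The summed linear signal of the proliferation markers Mki67, Top2a, Cdk1 and Ccnb1, with the 75th percentile of the array as 1, was 2.41 and 5.91 in knock-down after and 0.0931 to 0.125 before tMCAO, and all 4 were called higher with marked spots kept. That of the 5 monocyte and border macrophage markers was 6.42 to 6.93 against 0.969 to 1.25, all 5 called higher. That of the 8 microglial markers was 43.3 to 46.4 against 30.9 to 32.0, with 4 called higher. That of the endothelial and mural markers was 7.63 to 8.42 against 3.98 to 4.83 (5 of 6 called higher), and that of the neuronal markers at most 41.6 against 45.3 on both arrays (0 of 5 called). The astrocyte markers summed to 27.1 to 28.3 against 18.4 to 18.5 and the oligodendrocyte markers to 35.8 to 36.3 against 25.6 to 25.8, each with 1 of 5 called higher. All markers of these 7 lists were well above background on each of the 4 arrays. The erythroid markers, of which 2 to 4 of 5 were well above background, summed to 2.65 to 4.76 against 6.19 to 10.6, with 1 called lower. The part of these cell types in the level of Rpl39l or of the other members was not tested.

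Rpl10a, the protein of the L1 stalk of the large subunit, was the canonical gene called with marked spots left out. It lay at 4.42 and 4.55 in knock-down after and at 3.85 and 3.94 before tMCAO, with no array overlapping and no spot marked. The log2 difference was 0.59 ± 0.15 (SE, n = 2 arrays each), 1.51-fold higher (limma adjusted p = 0.043). The call was lost with quantile normalization (0.31, adjusted p = 0.154), without the filter (adjusted p = 0.061), in the deposited value tables (adjusted p = 0.055) and with the 2 groups fitted alone (adjusted p = 0.125). Leaving out any of the 4 arrays gave 0.53 to 0.66 with adjusted p from 0.095 to 0.148. Its other probe, marked on both arrays after tMCAO, differed in the same direction, by 0.25.

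Rps27l, a paralog of Rps27 known as a target of p53, had a value only with marked spots kept, because both arrays after tMCAO had marked spots. It lay at 3.50 and 3.44 in knock-down after and at 2.58 and 2.58 in knock-down before tMCAO. These arrays did not overlap, and the log2 difference was 0.89 ± 0.16 (SE, n = 2 arrays each, limma adjusted p = 0.018). It lay at 2.65 and 2.95 in wild type before, 2.62 and 2.73 in overexpression before, 1.81 and 2.69 in wild type after, and 2.54 and 2.74 in overexpression after tMCAO. Its other, dimmer probe lay at 2.17 and 1.72 in knock-down after and at 1.93 and 1.75 before, where the groups overlapped. The partner Rps27, unmarked on all 12 arrays, lay at 3.70 and 4.13 in knock-down after and at 3.58 and 3.63 before.

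Rpl15, a large subunit protein, was called with marked spots kept as well. Its level was 4.26 and 4.40 in knock-down after and 3.76 and 3.71 before tMCAO, a log2 difference of 0.59 ± 0.15 (SE, n = 2 arrays each, limma adjusted p = 0.044). Its other probe lay at 3.78 and 3.99 after and at 3.83 and 3.84 before tMCAO, where the groups overlapped, and the spots of both probes after tMCAO were marked. The call thus held for 1 of its 2 probes.

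Rpl10l, a paralog of the X-linked Rpl10 that is known to serve in the testis, was the member called lower (limma adjusted p = 0.025). It lay at -7.69 and -7.37 in knock-down after tMCAO, not well above background, and at -5.72 and -5.73 before. It passed the filter only through wild type and knock-down before tMCAO, which fixed the direction, so the call supports nothing. The level before tMCAO lay below the lowest signal that was well above background on the arrays after tMCAO, so no fold is given. The call was lost with normexp background correction (adjusted p = 0.401), without the filter (adjusted p = 0.054) and without any of 3 of the 4 arrays. Rpl10 lay at 4.01 and 4.34 after and at 3.83 and 3.84 before tMCAO, with marked spots after it.

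Among the members that did not pass, Rps6 stood lowest after Rpl10l. Rps6 is the small subunit protein that the S6 kinases phosphorylate. Its probe is spotted 10 times, and over all spots it lay at 3.45 and 3.57 in knock-down after and at 3.86 and 3.84 before tMCAO. With marked spots left out it rested on 1 array after tMCAO at 2.98, a log2 difference of -0.91 ± 0.23 (SE, limma adjusted p = 0.088), and with marked spots kept the difference was -0.34. Its other probe lay at 3.54 and 3.79 after and at 3.29 and 3.35 before, the opposite direction. Rpl3l was not well above background on either array after tMCAO. Rps15 lay at -0.23 on 1 array after tMCAO, and Rpl36 at -0.04. Rps15 and Rpl36 lay at 0.14 and 0.04 with marked spots kept. On the other side, Rpl41 lay at 0.46 and Rpl37, by its dim probe, at 0.42, each on 1 array after tMCAO.

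By role, marked spots included, the P-stalk genes Rplp0, Rplp1 and Rplp2, whose proteins recruit translation factors, and Rpl12 at their base had a median difference of 0.33 between knock-down after and before tMCAO, with 4 of 4 positive. Rps2 and Rps3, at the mRNA entry site, had a median of 0.40. The 6 genes at the exit tunnel and its rim (Rpl4, Rpl17, Rpl23a, Rpl31, Rpl35 and Rpl39) had a median of 0.17, all positive. Rpl5 and Rpl11, which bind the 5S RNA and can hold Mdm2, had a median of 0.20. None of these genes was called. All their spots were marked on both arrays after tMCAO, so none had a value with marked spots left out. With marked spots kept, 75 of 85 members and 53.2% of all genes were positive in this comparison. The large subunit had a median of 0.30 over 46 canonical genes and the small subunit 0.30 over 31.

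The 3 genotypes before tMCAO were compared on the same slide to ask what ZEB1 does in unchallenged microglia. Knock-down against wild type was the comparison with the fewest marked spots, and 83 members were measured. None was called, and neither was any of the 30293 genes tested (0%, limma), with 2651 genes and 0 members at an unadjusted p under 0.05. The members' median log2 difference was -0.15 against -0.07 for all genes, with 77 of 83 members and 18639 of 30293 genes negative. The half-width of the 95% interval of a single member had a median of 0.42, so differences of this size could not be called one by one. Keeping marked spots, both knock-down arrays lay below both wild type arrays for 57 of 85 members, against 30% of all genes, and above them for 1 member, Rpl10l, against 13.9%. Both knock-down arrays lay below all 6 other arrays of the slide for 42 of 77 canonical genes. The share of all genes in that order was not counted, so nothing is read from this number. The wild type arrays themselves differed by 0.17, and without the first of them the median was -0.24 and without the second -0.07. Quantile normalization moved the median to -0.04 against 0.00 for all genes, and 33 of 85 members then lay below without overlap, 38.8% against 21.7% of all genes, and 8 above, 9.41% against 21.5%. Summed markers moved with this comparison: those of oligodendrocytes were 25.6 to 25.8 in knock-down and 30.5 to 32.0 in wild type, and those of astrocytes 18.4 to 18.5 and 20.9 to 21.1. Those of microglia were 30.9 to 32.0 and 32.98 to 36.4, and those of proliferation 0.0931 to 0.125 and 0.155 to 0.263. Endothelial and mural markers summed to 3.98 to 4.83 in knock-down and 4.97 to 5.10 in wild type. None of these markers was called, and their part was not tested.

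The lowest member in that comparison was Rpl37 at -0.45 ± 0.17 (SE, n = 2 arrays each, limma adjusted p = 0.601), with -2.51 and -2.68 on the knock-down and -2.28 and -2.02 on the wild type arrays. This value rests on the dim 8-array probe of Rpl37 alone. Rps24 at -0.31, Rpl27 at -0.31, Rplp1 at -0.29 and Rps29 at -0.29 followed, each resting on 1 wild type array and Rps29 on 1 knock-down array too. High members were Rpl39l at 0.17, Rpl10l at 0.13, Rpl3l at 0.06 and Rpl14 at 0.05. Those of Rpl39l, Rpl3l and Rpl14 changed sign when single arrays were left out. Of the stalk genes, Rplp0 read 3.48 and 3.54 for knock-down and 3.63 and 3.77 for wild type, and Rplp2 at 3.60 and 3.65 against 3.80 and 3.92, with no overlap in either gene. Rplp1 lay at 3.49 and 3.69 against 3.67 and 3.88, where the arrays overlapped. Rpsa, which sits at the mRNA exit site of the small subunit, lay at 3.71 and 3.86 against 3.83 and 4.14 and overlapped too.

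Overexpression against wild type before tMCAO gave no call either, in 38 members measured and in 25162 genes (0%, limma), with 2712 genes and 0 members at an unadjusted p under 0.05. The median difference was 0.15 against -0.01 for all genes, with 33 of 38 members and 48.8% of all genes positive. It was 0.09 over 85 members once marked spots were kept, and -0.00168 with quantile normalization in addition. Both overexpression arrays lay above both wild type arrays for 17 of 85 members, 20% against 22.8% of all genes, and below for 1 member, against 24.5%. With quantile normalization in addition, 21 lay above without overlap, 24.7% against 24.4%, and 18 below, 21.2% against 23.4%. The proliferation markers summed to 0.0819 to 0.0930 in overexpression and 0.155 to 0.263 in wild type. Only 1 to 3 of these 4 were well above background in overexpression. The erythroid markers summed to 4.998 to 6.74 and 9.79 to 10.7, with 3 of 5 well above background in overexpression and 4 in wild type. Monocyte and border macrophage markers summed to 0.994 to 1.02 and 1.04 to 1.70. Endothelial and mural markers summed to 4.88 to 4.95 and 4.97 to 5.10. The part of these markers was not tested. Without the second overexpression array the median was -0.02. Rps20, a protein of the small subunit head, was the highest member at 0.50 ± 0.20 on 1 overexpression array (SE, limma adjusted p = 0.491), with levels over all spots of 3.51 and 3.88 against 3.32 and 3.44. With the mean of its probes the difference was -0.02. The brighter of its other probes read 3.46 and 3.50 against 3.11 and 3.41, with all those spots marked, and the dimmer -1.16 and -1.35 against -1.15 and -1.31, where the arrays overlapped. Rpl3l followed at 0.41, with 1 overexpression array not well above background, then Rps14 at 0.33, Rpl27a at 0.33 and Rps3 at 0.30, and Rps14, Rpl27a and Rps3 rested on 1 overexpression array. The lowest were Rpl10l at -0.57, with the overexpression arrays not well above background, then Rplp0 at -0.15, Rpl36 at -0.06, Rps27a at -0.04 and Rpl39l at -0.04. Those 4 changed sign in at least 1 other fit.

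Overexpression against knock-down before tMCAO shares its arrays with both comparisons above and is given for its own values. None of 38 members and none of 25167 genes was called (0%, limma), with 3343 genes and 1 member, Rps20, at an unadjusted p under 0.05. The median was 0.30 against 0.10 for all genes, with 36 of 38 members and 60.2% of all genes positive. Both overexpression arrays lay above both knock-down arrays for 56 of 85 members when marked spots were kept, against 31.8% of all genes, and below for 1, against 19.4%. With quantile normalization the median fell to 0.06 against 0.02 for all genes, and with marked spots kept in addition 34 of 85 members lay above without overlap, 40% against 25.6%, and 14 below, 16.5% against 23.9%. The astrocyte markers summed to 20.1 to 21.6 in overexpression and 18.4 to 18.5 in knock-down. Oligodendrocyte markers summed to 27.3 to 33.6 and 25.6 to 25.8, and endothelial and mural markers to 4.88 to 4.95 and 3.98 to 4.83. Neuronal markers summed to 46.1 to 47.2 and 45.3 on both arrays. Proliferation markers were near the floor, at 0.0819 to 0.0930 and 0.0931 to 0.125. Sums of microglial, monocyte and border macrophage, neutrophil and erythroid markers overlapped. The part of these cell types was not tested. The highest members were Rps20 at 0.57 ± 0.20 (SE, limma adjusted p = 0.361), Rps14 at 0.52, Rps3 at 0.51, Rpl7 at 0.48 and Rpl27a at 0.47, each on 1 overexpression array. With the mean of its probes Rps20 lay at 0.04. Rpl7 fell to 0.03 in 1 of the other settings. Its other, dimmer probe read 2.31 and 3.03 for overexpression and 2.94 on both knock-down arrays, where the groups overlapped. Rpl10l was not well above background on either overexpression array. The lowest of the others were Rpl39l at -0.21, then Rplp0 at 0.05, Rpl36 at 0.05 and Rps27a at 0.09. The share of members with marked spots, 80% and 56.5% against 4.71% and 3.53%, and the side of the slide moved with this comparison, and their part in it was not tested.

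**Figure D3:**
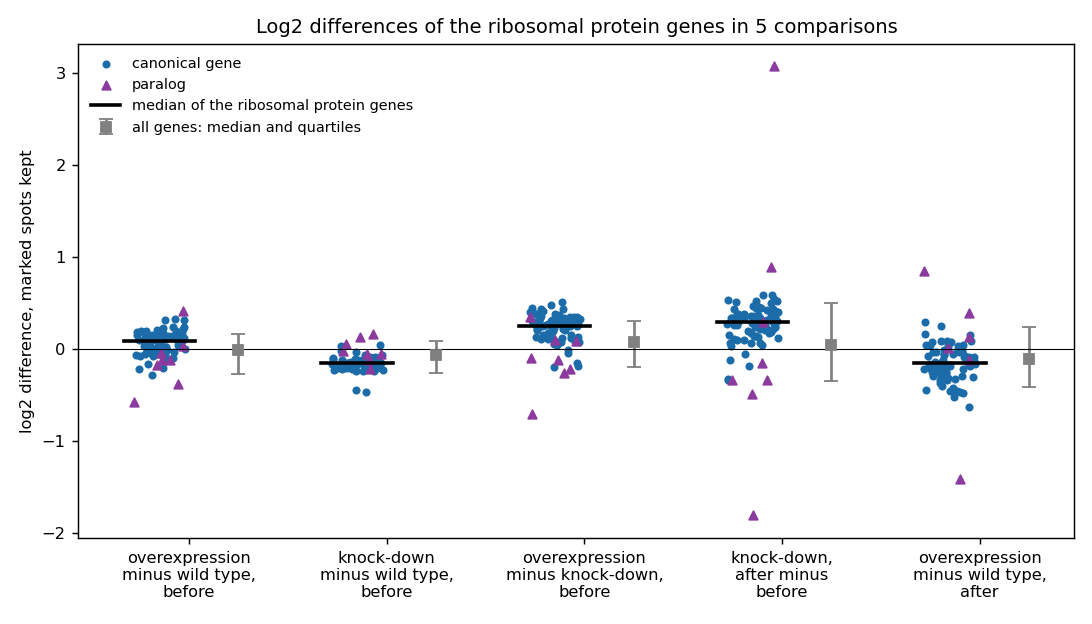
Log2 difference of each ribosomal protein gene in the 5 comparisons, with marked spots kept (85 genes in the first 4 comparisons, 82 in the last). Circles are canonical genes, triangles are paralogs, black bars are the members' medians (0.09, -0.15, 0.25, 0.30 and -0.15), and grey squares with bars are the median and quartiles of all genes. In knock-down after minus before tMCAO the highest point is the paralog Rpl39l at 3.07, and the lowest is Rpl10l, which was not well above background after tMCAO.

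The comparison of overexpression with wild type after tMCAO asks whether more ZEB1 alters microglia after occlusion. It was made on the 4-array slide. With marked spots left out, 0 of 34 members were called, against 2.31% of 22072 genes (limma), 1.58% higher and 0.734% lower, and 2 members, Rpl39l and Rpl3l, had an unadjusted p under 0.05. The members' median was -0.11 and that of all genes -0.11. When marked spots were kept, 0 of 82 members were called against 3.2% of 27935 genes, 1.95% higher and 1.25% lower, 3 members had an unadjusted p under 0.05, and the medians were -0.15 and -0.10. Both overexpression arrays lay below both wild type arrays for 29 of 82 members, 35.4% against 33.8% of all genes, and above for 3, against 21.6%. Quantile normalization turned the members' median to 0.03 against -0.07 for all genes. With marked spots kept in addition, 13 members lay below without overlap, 15.9% against 31.5% of all genes, and 12 above, 14.6% against 24.3%. By subunit, over all spots, the median was -0.18 over 46 large subunit genes and -0.08 over 30 small subunit genes.

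Rpl39l was the highest member here too, with the levels given above. The groups did not overlap, and the log2 difference was 0.85 ± 0.25 (SE, n = 2 arrays each, limma adjusted p = 0.121). It ranged from 0.81 to 0.87 over 8 other settings and from 0.76 to 0.94 with each array left out. Rpl3l, a paralog of Rpl3 known from striated muscle, was the lowest. It read -4.71 and -5.15 for wild type and -5.79 and -6.88 for overexpression, where it was not well above background, and so was at least 1.76-fold lower (limma adjusted p = 0.113). It passed the filter only through wild type, which fixed the direction, so this is a description. A fold "at least" sets the bright group's mean against the mean of the lowest signal well above background on each dim array, or of the probe itself where that is higher. Without the first overexpression array 1 member was called, and it was Rpl3l, at background on the array that remained. Its partner Rpl3 read 2.91 and 2.88 for overexpression and 3.04 and 2.90 for wild type. The summed signal of the monocyte and border macrophage markers was 25.5 to 26.6 for overexpression and 14.7 to 19.1 for wild type. That of the endothelial and mural markers was 4.68 to 5.89 against 9.75 to 10.9, with 2 called lower when marked spots were kept. Microglial markers summed to 89.0 to 107.9 against 106.7 to 114.9, where the groups overlapped. Neutrophil markers summed to 31.7 to 38.1 against 26.2 to 27.1, with 1 called higher, and lymphocyte markers to 2.22 to 4.61 against 1.41 to 1.71. Neuronal markers summed to 28.4 to 40.9 against 44.6 to 47.4, erythroid markers to 24.96 to 28.5 against 33.3 to 38.02, astrocyte markers to 22.6 to 22.7 against 24.5 to 24.8 and oligodendrocyte markers to 16.7 to 17.4 against 19.3 to 20.2. The part of these cell types in the differences was not tested.

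The remaining named members of this comparison did not pass. Over all spots Rpl7 read 3.53 and 3.82 for overexpression and 4.14 and 4.15 for wild type. With marked spots left out its difference was -0.47, resting on 1 wild type array. On each of its other probes the arrays of the groups overlapped. Rpl17 at -0.43 and Rpl35 at -0.38 were also low. Rps4l at 0.65, Rps16 at 0.26, Rps2 at 0.21 and Rpl22 at 0.13 were the highest after Rpl39l. Of these, Rps4l, Rpl17, Rps2 and Rpl22 rested on 1 array of each group, and Rpl35 and Rps16 on 1 wild type array. Rps16 and Rps2 turned to -0.02 and -0.08 with marked spots kept. Rps4l then lay at 0.13, with overlapping arrays. Rplp0 lay at 4.98 and 4.77 against 4.83 and 4.87, and Rpsa at 4.82 and 4.20 against 4.68 and 4.40, with overlap in both. Rplp1 lay at 2.87 and 2.56 against 2.94 and 2.74, and Rplp2 at 4.20 and 4.01 against 4.31 and 4.27, where Rplp2 did not overlap.

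The paralogs did not move as a body. Rpl10l and Rpl3l were near background, Rpl39l lay between -5.17 and -0.62, and Rpl32l, Rps27l and Rpl22l1 were bright on the 8-array slide. Rpl22l1, a paralog of Rpl22, lay at 2.97 and 2.46 in knock-down after and at 3.11 and 2.99 before tMCAO, and its partner Rpl22 at 3.92 and 4.28 against 3.58 and 3.58. Rpl7l1 lay at 1.39 and 1.03 after and at 1.13 and 0.69 before tMCAO in knock-down, where the arrays overlapped, and Rpl7 at 4.07 and 4.37 against 3.73 and 3.85. Rps4l lay at 1.64 and 1.70 against 1.79 and 2.21 and Rps4x at 3.61 and 3.65 against 3.70 and 3.80, so that in both the arrays after tMCAO were the lower ones. All spots of these 6 genes after tMCAO were marked except that of Rpl7 on 1 array. The 3 members with the largest gaps between arrays of a group were Rpl39l (1.59), Rpl10l (1.11) and Rpl3l (1.09).

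**Figure D4:**
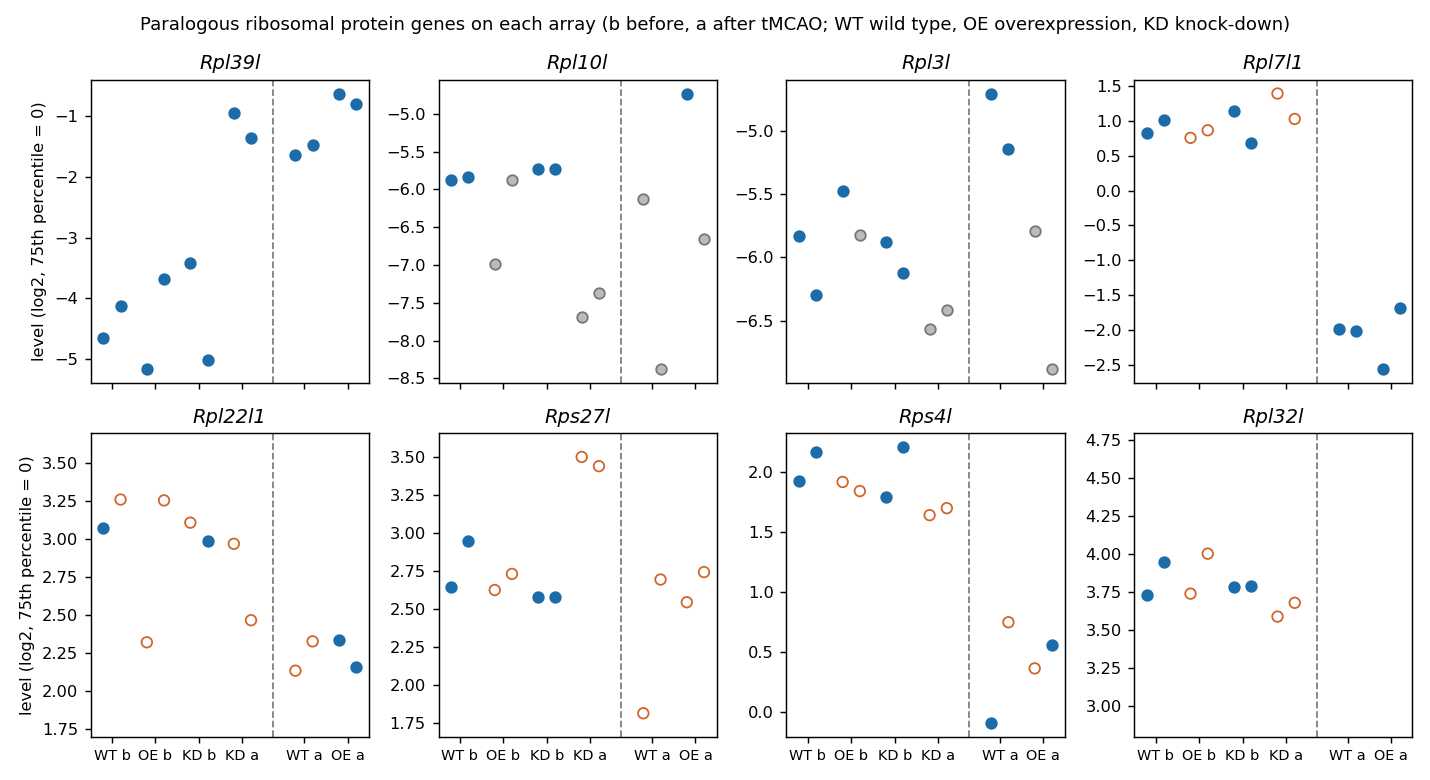
Levels of the 8 paralogs (log2 signal minus the 75th percentile of the array) on each array, with the 8-array slide left of the dashed line and the 4-array slide right of it. Filled blue points are well above background, grey points are not, and open points had all their spots marked. Rpl39l lies between -0.62 and -1.64 on the 6 arrays after tMCAO and between -3.42 and -5.17 on the 6 before it. Levels left and right of the line are not on a common scale and were not compared by a test. Rpl32l had no named probe on the 4-array slide.

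For 47 members with at least 2 probes on the 8-array slide, all probes of the gene agreed in sign for 42 in knock-down against wild type, 36 in overexpression against knock-down, 25 in overexpression against wild type, and 38 in knock-down after against before tMCAO. On the 4-array slide this held for 23 of 50. The sign of a member thus often depended on the probe in both comparisons of overexpression with wild type.

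**Figure D5:**
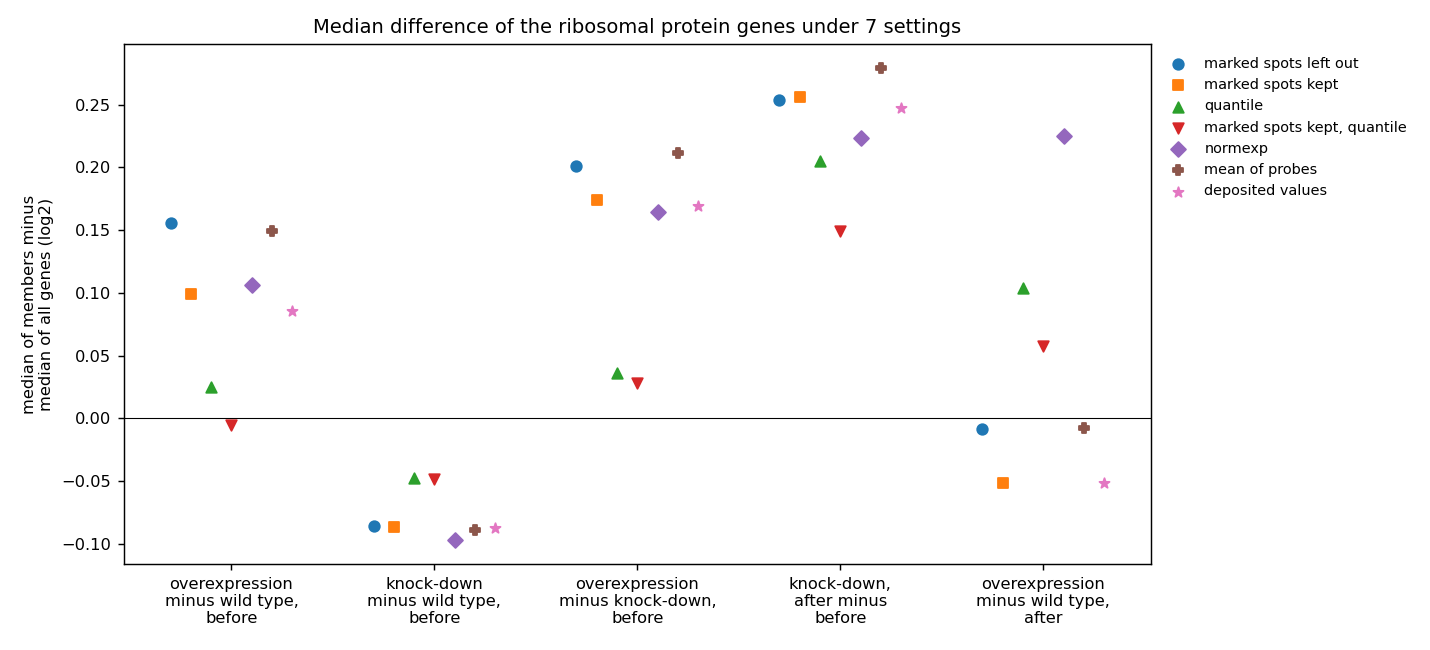
Median log2 difference of the ribosomal protein genes minus that of all genes in the 5 comparisons under 7 ways of processing. It is above 0 under all 7 for knock-down after minus before tMCAO (0.15 to 0.28, but -0.09 without the filter on dim probes, a setting not drawn) and for overexpression minus knock-down, below 0 under all 7 for knock-down minus wild type, and on both sides of 0 for both comparisons of overexpression with wild type.

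Other lists of the translation machinery are given beside the 16% of all genes called in the same comparison. In knock-down after against before tMCAO, with marked spots left out, 0 of 1 other ribosomal subunit gene, 0 of 3 elongation factors, 0 of 11 initiation factors, 0 of 25 ribosome biogenesis genes, 0 of 5 RNA polymerase I genes and 0 of 40 mitochondrial ribosomal protein genes were called. The medians were 0.18, -0.02, 0.15, 0.08, -0.03 and 0.04. Of 13 genes that govern growth and translation, 3 were called higher, where 10.1% of all genes were. Eif4ebp1, which encodes a repressor of the cap-binding factor, differed by 1.48 ± 0.18 (SE, limma adjusted p = 0.008). Myc, a transcription factor that drives ribosome synthesis, differed by 1.59 ± 0.19 on 1 array after tMCAO (adjusted p = 0.010). Rps6kb2, an S6 kinase, differed by 1.13 ± 0.18 (adjusted p = 0.014). Of 11 integrated stress response genes, 2 were called higher, Eif2ak2, the interferon-induced kinase PKR, at 1.35 ± 0.22 (adjusted p = 0.015) and Trib3 at 1.26 ± 0.27 (adjusted p = 0.031). Over all spots, against 16.6% of all genes, the growth list had 3 of 17 genes called higher and 2 lower, Tsc1 at -0.90 and Rptor at -0.67. The stress response list had 2 of 12 higher and 1 lower, Asns at -0.67, and the biogenesis list 1 of 37 higher, Nip7 at 0.89, and 1 lower, Wdr75 at -0.98. Over these spots the mitochondrial list had a median of 0.12 over 78 genes, with 1 called higher and 1 lower, beside 0.30 over the 85 cytosolic members.

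In the other comparisons these 8 lists held 1 call with marked spots left out. This was Eif2ak2 in overexpression against wild type after tMCAO, at 2.51 ± 0.32 (SE, n = 2 arrays each, limma adjusted p = 0.018). Before tMCAO the mitochondrial list had medians of 0.16 in overexpression against wild type over 49 genes, -0.05 in knock-down against wild type over 77 genes and 0.19 in overexpression against knock-down over 49 genes. The cytosolic members had 0.15, -0.15 and 0.30 in these comparisons, which share arrays.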

How the data were processed

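Single-colour arrays of 12 microglia samples were used. Per the file headers, the scanner output the authors deposited comes from version 11.5.1.1 of Agilent's Feature Extraction software. Version 9.1 is the one in the submitters' processing notes. They hold background-subtracted, detrended fluorescence intensity per spot, as the authors deposited it, and marks per spot of the kind "other" (well above background, saturated, non-uniform, outlier), per the file headers. Separate tables deposited by the authors give log2 values centred, as set against the scanner output, on the 75th percentile of each array and served as an alternative.

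Here log2 intensity was set relative to the 75th percentile of each array, and spots of a probe were averaged. Non-uniform and outlying spots were left out, or kept where stated. Probes were named by accession through the RefSeq table (48.1% of probes on the 4-array slide, 59.7% on the 8-array slide). To be kept, a probe needed more than 0.5 of its spots well above background on both arrays of a group, and the probe with the highest mean stood for its gene. The test was limma's (3.58.1, under R 4.3.3, two-sided) over all genes of a slide, with Benjamini-Hochberg adjustment and a threshold of 0.05. The code was tested on simulated data. Each slide had 1 scan date. Precision is limited by the few arrays.

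The members, the gene lists and the roles were chosen with earlier results of these data known. Named members were those called, the 5 highest and 5 lowest of each comparison, the paralogs with their partners, the stalk genes, Rpsa and the 3 with the largest gaps between replicates. Rpl15, called only with marked spots kept, and Rpl12, Rpl4, Rpl23a, Rpl31, Rpl5 and Rpl11, named by role, were added after their values were seen. Some members that the rule names are not reported here. Alternatives were marked spots kept, quantile normalization, normexp on the median signal (the planned mean signal column was not used here), both of the first together, no filter, the mean of probes, the value tables, the groups compared alone, a replicate block and each array left out.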

Additional observations from a re-analysis of the deposited data

Results flagged for a closer look

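Rpl10, a large subunit protein, and Rpl3l, the muscle paralog of Rpl3, were flagged because overexpression and wild type did not overlap at either time and lay in opposite order before and after tMCAO. With marked spots kept, overexpression minus wild type was 0.164 before and -0.169 after tMCAO for Rpl10, and 0.413 before and -1.41 after for Rpl3l. The difference between the times was not tested, and the times lie on different slides. Rpl3l was not well above background on 1 overexpression array before and on both after tMCAO. Rpl10 was marked on both overexpression arrays before, and on both wild type arrays and the first overexpression array after tMCAO. With marked spots left out Rpl10 had no difference at either time.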

How the results depend on the processing

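The members' median kept its sign in knock-down against wild type before, overexpression against knock-down before, and knock-down after against before tMCAO under the alternatives run, but its size did not hold. Quantile normalization gave medians of 0.032 (overexpression against wild type after), -0.044 (knock-down against wild type), 0.061 (overexpression against knock-down) and 0.112 (knock-down after against before). With marked spots kept in addition, an alternative chosen after seeing the data, as was normexp on the median signal, they were 0.0021, -0.044, 0.039 and 0.077, and -0.0017 for overexpression against wild type before. The members called in knock-down after against before were 3, and 5 with marked spots kept, 5 with normexp and 0 with no filter, which tests more genes. Leaving out 1 array gave 0 to 1 called there and medians of 0.132 to 0.544. It gave 0 to 1 called in overexpression against wild type after, and medians of -0.015 to 0.220 in overexpression against wild type before, -0.238 to -0.073 in knock-down against wild type and 0.148 to 0.363 in overexpression against knock-down. The causes were not tested.

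Single members that did not pass changed sign in 36 fits. In overexpression against wild type after, Rps16 was -0.016 and Rps2 -0.083 with marked spots kept, Rps2 -0.067 in the value tables, and Rps16 -0.221 with the replicate block and -0.221 to 0.736 without single arrays. In overexpression against wild type before, Rpl39l was 0.078 with either quantile fit, Rplp0 0.055, Rps27a 0.077 and Rpl39l 0.057 with normexp, and Rps20 -0.021 with the mean of probes. Without single arrays Rpl36 was -0.290 to 0.174, Rpl39l -0.785 to 0.699 and Rps27a -0.121 to 0.033. In knock-down against wild type, Rpl3l was -0.017 with normexp. Without single arrays Rpl3l was -0.170 to 0.293, Rpl39l -0.627 to 0.965 and Rpl14 -0.022 to 0.115. In overexpression against knock-down, Rpl36 was -0.070 and Rps27a -0.212 with quantile, and Rplp0 -0.0032, Rpl36 -0.070 and Rps27a -0.153 with marked spots kept in addition. Without single arrays Rpl39l was -1.01 to 0.584 and Rpl36 -0.183 to 0.280. In knock-down after against before, Rps15 was 0.141 and Rpl36 0.037 with marked spots kept, Rpl36 0.081 with normexp and -0.273 to 0.20 without single arrays, and Rps15 0.117 in the value tables.

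The replicate numbers pair nothing in the labels, and deviations of same-numbered arrays correlated at 0.035 to 0.173. With the replicate block the members called were 0 in 4 comparisons and 3 in knock-down after against before, and the medians were -0.16 (overexpression against wild type after), 0.12, -0.16, 0.29 and 0.32. In the value tables, the columns of knock-down after tMCAO are exchanged relative to the scanner output of its replicates, which leaves group means as they are. Normexp shifted the median of all genes to 0.21 in knock-down after against before and to -0.28 in overexpression against wild type after. All-gene calls in knock-down after against before were 3940, against 7065 with normexp, 1715 with no filter and 2013 with the groups compared alone. In overexpression against wild type after they were 510, against 895 with marked spots kept, 777 in the value tables, 312 with quantile, 330 with normexp and 0 with no filter.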
